A study of Mus musculus with 68 samples.

Results

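The genes described here lie side by side on mouse chromosome 6, directly beyond Mcm2, the gene edited in the MCM2-2A and MCM2-R#2 embryonic stem cell (ESC) lines. Members were all gene rows placed after the end of Mcm2, up to a limit just beyond Slc6a6, in each of the 3 deposited count tables. They numbered 90 of the 55335 gene rows and covered chr6:88902251-91759066 of the mm10 build, a stretch of 2.86 Mb. The stretch was chosen by the measured values of the rescue table, in which the genes between its limits were lower in MCM2-2A#2 and in MCM2-R#2 than in WT#1. Those contrasts are therefore given as values without a test. Of the members, 38 were protein coding, 12 were lincRNAs, 13 were unclassified transcripts (TEC in the annotation), and 14 were processed or unprocessed pseudogenes.

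All cells were derived from the E14JU line, of 129/Ola background, and were grown in serum with LIF on gelatin without any treatment. MCM2-2A lines carry a histone-binding mutant of MCM2, a subunit of the replicative helicase that passes parental histones to new DNA. MCM2-R#2 is the line in which the MCM2-2A#2 mutation was reverted, so that it descends from the MCM2-2A#2 clone; its genotype label reads wildtype, and its identity was taken from the sample table of the study. POLE4-KO lines lack a subunit of the leading-strand DNA polymerase, and their Mcm2 was not edited. Each numbered line is 1 clone. In the rescue table, WT#1, MCM2-2A#2 and MCM2-R#2 were measured as 4 cultures each. In the clone table, the January libraries comprised MCM2-2A#1 and MCM2-2A#2 (3 each), the March libraries WT#1, MCM2-2A#1 and MCM2-2A#3 (3 each), and the August libraries 7 WT clones and 5 MCM2-2A clones (2 each, summed per clone). The third table held WT#1 and POLE4-KO#1, #2 and #3, with 3 libraries each. The study terms its RNA-seq replicates biological, while the labels do not say how they were grown; replicates of 1 clone share that clone, so p-values between clones measure the spread within them.

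The stretch holds genes with unrelated functions. Among them are the semaphorin receptor gene Plxna1, the taurine transporter gene Slc6a6, the nuclear pore gene Nup210, the DNA damage recognition gene Xpc, the mitochondrial import gene Chchd4 and a cluster of Vmn1r vomeronasal receptor genes. The CHCHD proteins act in mitochondria, XPC and LSM3 in the nucleus, and plexins at the cell surface, where they receive guidance cues. RNA counts measure neither DNA copy number nor chromatin, and neither was analysed here.

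Total counts per column ran from 18369196 to 67467849. The 10 ESC markers were expressed in every set of libraries. The lowest had a median of 96.7 CPM, the count scaled to the library total, over the 12 August clones, WT and MCM2-2A together. Summed fibroblast markers ranged from 3.83 to 168 CPM over the libraries. Summed primitive endoderm markers were 31.6 to 43.8 CPM in the MCM2-2A#2 rescue cultures against 10.3 to 14.2 CPM in WT#1 and 11.1 to 14.5 CPM in MCM2-R#2; their part in the values below was not tested. In bulk RNA, fewer expressing cells and less RNA per cell cannot be told apart.

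Start sites in the stretch are shown because 2 pairs of the lowered genes share one promoter region, and because the first member sits close to the edited gene. Mcm2 runs on the minus strand (chr6:88883474-88898780) and Tpra1 on the plus strand, with 3470 bases between their starts. Chchd4 and Tmem43 start 156 bases apart on opposite strands, and Xpc and Lsm3 start 39 bases apart. The sequences below are from RefSeq (GRCm38.p6), 5′ to 3′ on the strand stated. Capitals mark the motifs found on either strand: the GC box, whose letters are GGGCGG, the core of the ZNF143 motif, and the CCAAT box, which reads reversed and complemented where it lies on the other strand.
Mcm2, chr6:88898781-88898930, minus strand: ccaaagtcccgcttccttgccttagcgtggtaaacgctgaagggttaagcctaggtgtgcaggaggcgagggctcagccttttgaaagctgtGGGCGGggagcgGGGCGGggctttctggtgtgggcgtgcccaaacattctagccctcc
Tpra1, chr6:88902101-88902250, plus strand: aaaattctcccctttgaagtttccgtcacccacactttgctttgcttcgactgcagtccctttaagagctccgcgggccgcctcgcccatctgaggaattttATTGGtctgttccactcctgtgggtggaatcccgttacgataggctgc
Chchd6, chr6:89595653-89595802, minus strand: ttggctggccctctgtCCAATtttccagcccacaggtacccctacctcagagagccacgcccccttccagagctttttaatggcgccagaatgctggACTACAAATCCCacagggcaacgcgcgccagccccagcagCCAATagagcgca
Chchd4 and Tmem43, chr6:91473547-91473702, plus strand: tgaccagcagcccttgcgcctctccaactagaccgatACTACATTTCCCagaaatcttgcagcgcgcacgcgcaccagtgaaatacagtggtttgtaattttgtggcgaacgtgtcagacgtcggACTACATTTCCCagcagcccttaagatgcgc
Xpc and Lsm3, chr6:91515889-91515927, plus strand: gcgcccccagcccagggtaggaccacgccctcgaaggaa

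Promoter windows from 250 bases before to 50 after the start were found for 42 of the 90 members, among them 18 of the 26 members tested in the rescue table. Both strands were searched. The ZNF143 core was present in 3 of the 18 windows (16.7%), those of Chchd6, Chchd4 and Tmem43, against 2.08% of 27018 promoters; the latter pair share their sequence. The GC box was found in 13 of the 18 (72.2%) against 38.2%. The CCAAT box was in 7 (38.9%) against 41.1%, and TATAAA in 1 (5.56%) against 15.7%. The windows of tested members had a median GC content of 60.3%, against 43.7% in members not tested and 52.7% in all promoters. The ETS core (CGGAAG) was in 2 (11.1%) against 18.8%, the CRE core in 1 (5.56%) against 2.03%, and the NRF1 core in 0 against 1.07%. None of the 7 motifs was in all 18 windows, and a match of letters is not a binding site.

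Mcm2, the edited gene, lies immediately outside the stretch. MCM2-2A carries substitutions, which a count of reads does not show, so the level of Mcm2 does not check the labels. In the WT#1 rescue cultures Mcm2 read 397, 403, 432 and 438.8 CPM, in MCM2-2A#2 218, 219, 231 and 233 CPM, and in MCM2-R#2 205, 213, 214 and 218 CPM. Both edited lines lay below every WT#1 culture, and the difference between them was small (log2 fold change -0.08, SE 0.05, adjusted p 0.30 in the edgeR quasi-likelihood test used throughout). In the January libraries Mcm2 spanned 252 to 266 CPM in MCM2-2A#1 and 173 to 189 CPM in MCM2-2A#2, and no WT library of that month was analysed here. In March it spanned 355 to 389 CPM in WT#1, 245 to 269 CPM in MCM2-2A#1 and 210 to 214 CPM in MCM2-2A#3, the log2 fold changes being -0.54 (adjusted p 0.000207) and -0.81 (adjusted p 4.07e-06). Both clones lay below WT#1. In August the 7 WT clones had a median of 343 CPM (214 to 397) and the 5 MCM2-2A clones a median of 225 CPM (186 to 262); WT#6 at 214 and WT#8 at 225 CPM lay within the MCM2-2A range (log2 fold change -0.49, SE 0.16, adjusted p 0.12). The POLE4 libraries lay between 350 and 443.4 CPM.

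In the rescue table, 26 members passed the filter on low counts, 19 of them protein coding. All 26 had log2 fold changes below 0 against WT#1 in MCM2-2A#2 (48.7% of all genes) and in MCM2-R#2 (47.4%), and most lay near 50% of the WT#1 level. Their median was -1.07 for the mutant (47.5% of WT#1) and -0.98 for the reverted line (50.8%), while the median of all 17098 genes tested was 0.01 in the former. Because these contrasts chose the stretch, nothing is read from these counts.

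Members that act in the nucleus or on RNA are given first; in MCM2-2A#2 they ran from -1.42 for Klf15 to -0.71 for Tmem43 on the log2 scale against WT#1. Nup210, a membrane-spanning protein of the nuclear pore, read 67.5, 68.8, 70.7 and 81.5 CPM in WT#1, 29.9, 30.5, 30.5 and 37.1 CPM in MCM2-2A#2, and 31.9, 37.5, 38.9 and 41.4 CPM in MCM2-R#2. Xpc, which recognises DNA lesions in nucleotide excision repair, read 20.1, 21.3, 21.6 and 23.5 CPM in WT#1, 8.65, 10.5, 11.4 and 11.7 CPM in MCM2-2A#2, and 8.69, 9.35, 10.2 and 10.8 CPM in MCM2-R#2. Lsm3, a subunit of the ring that binds U6 snRNA and decaying mRNA, read 40.7, 45.7, 46.3 and 46.8 CPM in WT#1, 20.3, 20.9, 21.8 and 22.2 CPM in MCM2-2A#2, and 20.5, 21.5, 21.8 and 23.2 CPM in MCM2-R#2. For each of these genes the highest culture of either line lay well below the lowest WT#1 culture, which the choice of the stretch in part fixes. Such separation was found for 1661 of all 17098 genes in MCM2-2A#2 and 634 in MCM2-R#2. Tmem43, an inner nuclear membrane protein, was the least separated: WT#1 ran from 18.3 to 27.3 CPM, MCM2-2A#2 from 11.6 to 16.8 CPM and MCM2-R#2 from 12.3 to 15.3 CPM. The zinc finger gene Zxdc ran from 18.2 to 22.9 CPM, 7.58 to 10.5 CPM and 8.95 to 10.8 CPM in the same order. The Krüppel-like transcription factor gene Klf15 (11.8 to 13.9 CPM in WT#1, 3.77 to 5.12 CPM in MCM2-2A#2 and 5.39 to 6.02 CPM in MCM2-R#2) and the histone deacetylase gene Hdac11 were also below WT#1 in every culture. AC161456.1, a transcript that overlaps Lsm3 on the same strand, ran from 12.3 to 16.2 CPM, 6.23 to 7.04 CPM and 6.67 to 7.20 CPM.

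Of the mitochondrial, redox and folate genes, 3 lay below WT#1 in every culture, which the choice of the stretch in part fixes. Of all 17098 genes, 1661 lay wholly below WT#1 in MCM2-2A#2 and 634 in MCM2-R#2. Chchd4, which oxidises proteins imported into the intermembrane space, read 47.7, 55.2, 56.2 and 57.3 CPM in WT#1, 26.1, 26.4, 28.6 and 30.6 CPM in MCM2-2A#2, and 26.9, 27.2, 27.4 and 28.3 CPM in MCM2-R#2. Chchd6, a component of the complex that organises cristae, ran from 12.6 to 14.1 CPM, 5.02 to 6.30 CPM and 6.39 to 7.15 CPM. Txnrd3, a thioredoxin reductase, ran from 5.57 to 7.73 CPM, 2.54 to 3.26 CPM and 3.03 to 4.49 CPM. The folate enzyme gene Aldh1l1 differed from these: WT#1 spanned 3.37 to 5.19 CPM, and MCM2-2A#2 (2.91 to 5.32 CPM) and MCM2-R#2 (2.30 to 3.53 CPM) both overlapped it.

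Among membrane and signalling genes, Plxna1 and Slc6a6 had the largest counts. Plxna1 read 188, 212, 226 and 228 CPM in WT#1, 95.8, 113, 115 and 123 CPM in MCM2-2A#2, and 103, 111, 111 and 114 CPM in MCM2-R#2. Slc6a6 read 149, 152, 155 and 160 CPM in WT#1, 57.7, 62.2, 64.0 and 73.0 CPM in MCM2-2A#2, and 69.1, 71.1, 75.2 and 84.5 CPM in MCM2-R#2. Iqsec1, an exchange factor for ARF GTPases, ran from 27.8 to 36.3 CPM, 13.0 to 17.5 CPM and 15.8 to 18.7 CPM. All 3 genes lay below WT#1 in every culture of either line, as did 1661 of all 17098 genes in MCM2-2A#2 and 634 in MCM2-R#2. Tpra1, the member next to Mcm2, encodes a multispanning membrane protein; it read 8.09, 8.53, 8.82 and 9.05 CPM in WT#1, 2.74, 3.04, 3.26 and 3.52 CPM in MCM2-2A#2, and 3.06, 3.68, 3.77 and 4.16 CPM in MCM2-R#2. The extracellular matrix gene Fbln2 was at 1.69 to 1.93 CPM in WT#1, 1.30 to 1.82 CPM in MCM2-2A#2 and 0.730 to 1.11 CPM in MCM2-R#2, so that in MCM2-2A#2 it overlapped WT#1. The Wnt ligand gene Wnt7a was low and variable, with WT#1 cultures from 0.472 to 1.65 CPM and MCM2-2A#2 from 0.103 to 0.717 CPM and MCM2-R#2 from 0.418 to 1.21 CPM; the lines overlapped. The last tested member, Gm45828, overlaps Slc6a6 and lay between 0.135 and 1.06 CPM in all cultures.

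**Figure D1:**
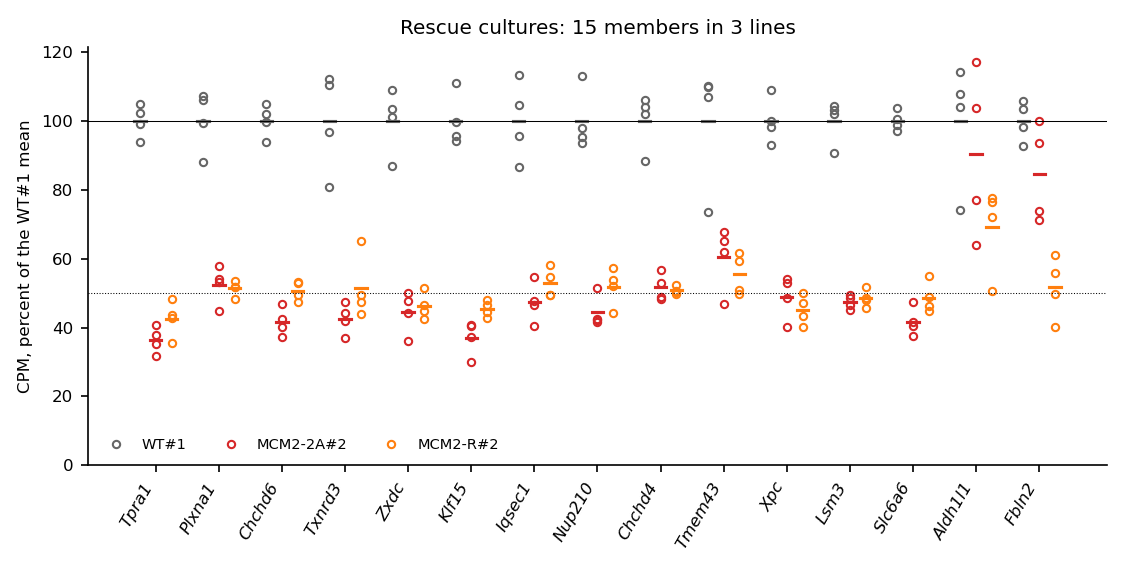
Level of 15 members in each rescue culture as a percentage of the mean CPM of the 4 WT#1 cultures (vertical axis). Points are cultures, bars are means, colours are WT#1, MCM2-2A#2 and MCM2-R#2, and the dotted line marks 50%. Most members of both edited lines sit near that line, with Aldh1l1 and Fbln2 in MCM2-2A#2 higher.

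The difference between the reverted line and its mutant parent is likewise a description, because both lines had to be low for the stretch to be chosen and a difference near 0 follows in part from that. On the log2 scale of MCM2-R#2 over MCM2-2A#2, 13 members lay above and 13 below 0 (50.8% of all genes below), with a median of 0.01. Plxna1 differed by -0.03, Chchd4 by -0.02 and Lsm3 by 0.03. Fbln2 was lower in MCM2-R#2 by a difference of -0.69 (SE 0.18), whereas Slc6a6 (0.23) and Chchd6 (0.28) were higher there. Fbln2 was the 1 member wholly below MCM2-2A#2, and 2 members, Chchd6 and Klf15, lay wholly above it (1199 and 1253 of all 17098 genes). The members' median difference from WT#1 in single cultures was -1.17 to -0.87 in MCM2-2A#2 and -1.01 to -0.98 in MCM2-R#2. MCM2-R#2 cultures had no library from the second technical run, which the other lines had.

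The January libraries hold the same MCM2-2A#2 clone beside another clone with the same mutation, MCM2-2A#1, and were not used to set the limits. Of 27 members tested, 25 had a log2 fold change below 0 (49.6% of all genes), with a median of -0.93 (52.4% of MCM2-2A#1) where that of all 19757 genes was 0.00. In 19 members every MCM2-2A#2 library lay below every MCM2-2A#1 library (13.3% of all genes), including 18 of the 19 protein coding members. The same held for only 1 of the 8 members that are not protein coding. Their median was -0.38, against -0.99 in the protein coding members. A gene is termed called where the adjusted p was under 0.01 and the log2 fold change exceeded 0.58 in size. Only Chchd4 was called lower (0.0152% of all genes): it read 49.6, 52.0 and 52.5 CPM in MCM2-2A#1 and 23.4, 24.8 and 25.1 CPM in MCM2-2A#2 (log2 fold change -1.07, SE 0.08, adjusted p 0.0030). At adjusted p below 0.05 with no fold limit, 12 members were lower (0.167% of all genes).

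These 12 were Tpra1, Plxna1, Chchd6, Txnrd3, Klf15, Iqsec1, Nup210, Chchd4, Tmem43, Xpc, Lsm3 and Slc6a6, and their log2 fold changes ranged from -1.30 to -0.86. Slc6a6 read 126, 126 and 128 CPM in MCM2-2A#1 and 49.1, 54.6 and 68.5 CPM in MCM2-2A#2 (-1.14, SE 0.12, adjusted p 0.012). Xpc read 14.5, 15.8 and 16.4 CPM against 7.76, 7.93 and 8.02 CPM (-0.98, SE 0.11, adjusted p 0.012). Its neighbour Lsm3, across the shared 39 bases, read 31.2, 33.8 and 39.4 CPM against 15.2, 18.1 and 20.4 CPM (-0.96, SE 0.14, adjusted p 0.026). The groups did not overlap for any of these genes. Plxna1 read 186, 213 and 216 CPM against 75.3, 93.8 and 115 CPM, and Nup210 46.4, 53.5 and 55.5 CPM against 24.99, 27.2 and 33.4 CPM. Tpra1 read 6.74, 7.14 and 7.39 CPM against 2.00, 2.696 and 3.89 CPM (-1.30, SE 0.23, adjusted p 0.050). Iqsec1 read 27.9, 28.4 and 33.7 CPM against 9.90, 12.4 and 16.3 CPM, and Tmem43 23.6, 26.2 and 26.9 CPM against 10.9, 11.5 and 16.2 CPM. In Plxna1, Tpra1, Iqsec1, Tmem43 and Slc6a6 the highest MCM2-2A#2 library was replicate 1.

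That library stood apart from the others of its clone (SD of its log2 values from theirs 0.342, against 0.258 and 0.291), and its fibroblast marker sum was 75.3 CPM against 37.7 and 28.6 CPM. Without it, 14 members were called (7.08% of all genes), whereas without any of the MCM2-2A#1 libraries or without MCM2-2A#2 replicate 2 none was called; the median stayed between -0.94 and -0.83. DESeq2 called 13 members (2.49% of all genes). A fit of all 39 libraries of the clone table, chosen after seeing the data, called 15 lower (2.22% of all genes). Zxdc (-0.82, adjusted p 0.070), Hdac11 (-0.93, adjusted p 0.11) and Slc41a3, of a magnesium transporter family (-1.11, adjusted p 0.13), had values of similar size that did not pass. Aldh1l1 (-0.45, adjusted p 0.22) was again nearer to 0, but here its clones did not overlap (3.48 to 3.81 CPM in MCM2-2A#1, 2.17 to 3.22 CPM in MCM2-2A#2). Vmn1r43 (0.10) and Gm20426 (0.07) were the members above 0.

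**Figure D2:**
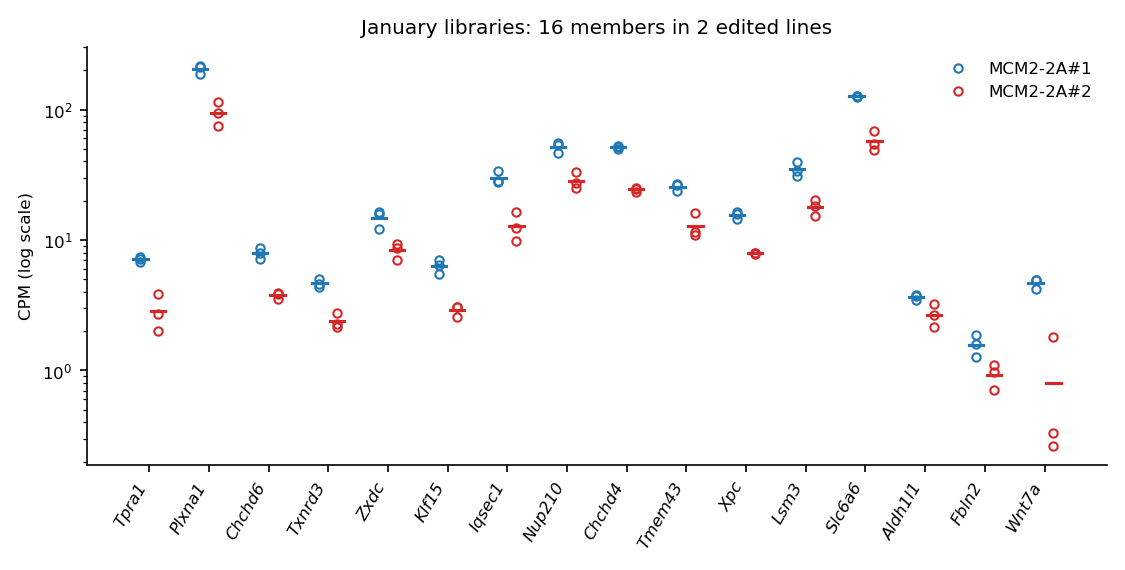
CPM (log axis) of 16 members in the January libraries of MCM2-2A#1 and MCM2-2A#2, 1 point per library and 3 libraries per clone. The clones are apart for Plxna1, Slc6a6, Nup210, Chchd4, Lsm3 and Xpc, and nearer to each other, though without overlap, for Aldh1l1.

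The edges of the stretch were set from the rescue values, so they are described without a test. Just inside, Tpra1 stood at a log2 fold change of -1.45 in the mutant and -1.23 in the reverted line, and Slc6a6 at -1.26 and -1.04. Beyond Mcm2, on the other side, Podxl2 stood at -0.14 and -0.34 and Abtb1 at 0.00 and -0.15. Past Slc6a6, Grip2 stood at 0.22 and 0.00 and Ccdc174 at -0.03 and -0.12. The next tested gene on either side was less even. Mgll, before Mcm2, averaged 1.25 CPM in WT#1, 2.03 CPM in MCM2-2A#2 and 1.27 CPM in MCM2-R#2. Past Ccdc174, 4930590J08Rik averaged 0.49, 0.73 and 0.49 CPM in the same order. The edge values in January, which did not set them, were -0.63 for Podxl2 (adjusted p 0.29), 0.09 for Abtb1, 0.59 for Grip2 (adjusted p 0.22) and -0.07 for Ccdc174. Mgll averaged 3.18 CPM in MCM2-2A#1 and 2.29 CPM in MCM2-2A#2 there, and 4930590J08Rik 0.31 and 0.67 CPM. Over the genes within 3 Mb, January medians were -0.06 before Mcm2 (47 genes) and 0.14 after the stretch (14 genes), beside -0.93 between them. Mcm2 itself, at -0.50 (adjusted p 0.034), was compared there with a clone whose Mcm2 was already low.

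**Figure D3:**
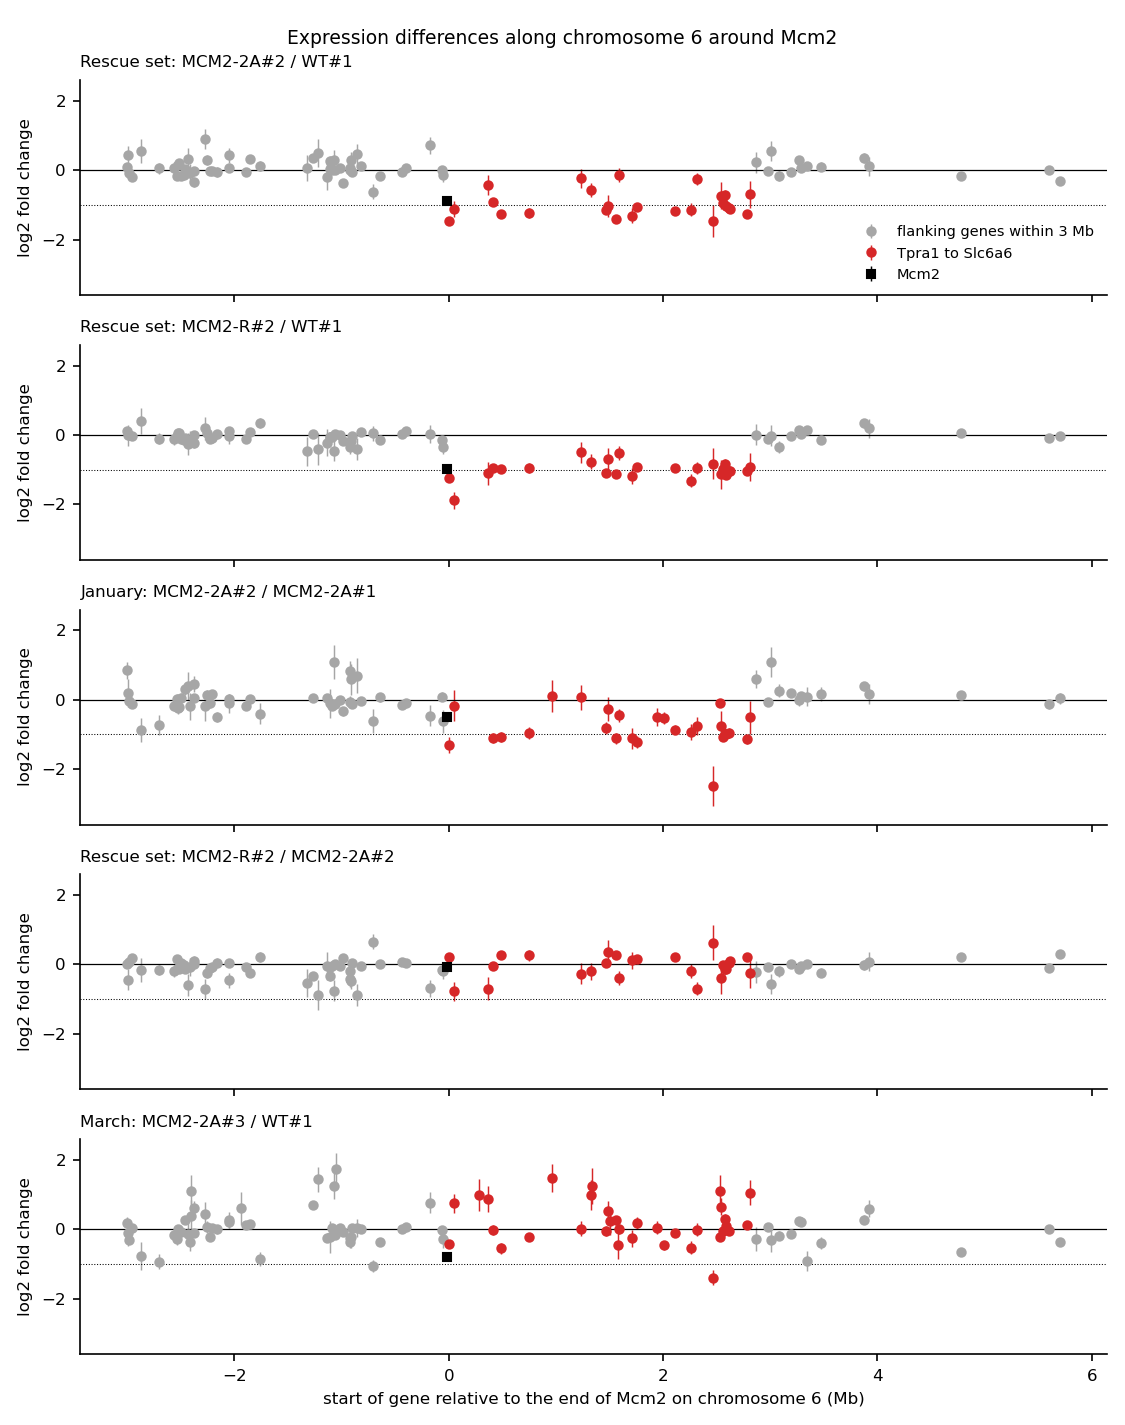
Log2 fold change with SE (vertical axis) against the distance from the end of Mcm2 in Mb, in 5 comparisons. Red points are members, grey points are genes within 3 Mb, black is Mcm2, and the dotted line marks -1. The members' median lies near -1 in MCM2-2A#2 and MCM2-R#2 against WT#1 and in MCM2-2A#2 against MCM2-2A#1. It lies near 0 in MCM2-R#2 against MCM2-2A#2 and in MCM2-2A#3 against WT#1. In the last, single members spread from -1.39 to 1.48.

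In the other MCM2-2A clones the members' medians lay near 0. In March, 34 members were tested. MCM2-2A#1 had 2 members called higher and none lower (4.34% of all genes called higher), with a median of -0.14. Wnt7a rose from 0.99, 1.12 and 1.30 CPM in WT#1 to 3.85, 4.06 and 5.08 CPM in MCM2-2A#1 (log2 fold change 1.92, SE 0.17, adjusted p 2.86e-05), and Fbln2 from 0.73, 0.88 and 1.00 CPM to 1.40, 1.63 and 1.64 CPM (0.84, SE 0.19, adjusted p 0.0097). The Fbln2 call was lost on leaving out any 1 library. In MCM2-2A#3, 1 member was called lower (7.15% of all genes): Wnt7a fell to 0.40, 0.41 and 0.49 CPM (-1.39, SE 0.21, adjusted p 0.000386), and the median was 0.03. Wnt7a was therefore higher than WT#1 in one clone and lower in another. Both comparisons share the WT#1 libraries. In August, WT#1 itself had the highest Wnt7a of the 12 clones. The 7 WT clones then ran from 0.160 to 1.85 CPM with a median of 0.422 CPM, so a value below WT#1 need not lie below other WT clones. The summed fibroblast markers were 7.49 to 8.00 CPM in MCM2-2A#3, 66.9 to 97.4 CPM in MCM2-2A#1 and 43.9 to 65.6 CPM in WT#1. Fbln2 stood at -0.01 in MCM2-2A#3. The part of these markers in the Fbln2 and Wnt7a values was not tested.

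In August, with the clone as the replicate, no member was called among 33 (0.227% of all genes were), and the median was 0.05. An unadjusted p under 0.05 was found for 6 of the 33 and for 3896 of all 20738 genes. Fitting the 2 libraries of each clone singly gave 1 call, Fbln2 (log2 fold change 0.81, adjusted p 0.0031; 2.9% of all genes), where libraries of a clone count as replicates. The median over members of any single clone lay between -0.06 and 0.07 on the log2 scale relative to the median clone, so that none of the 12 clones had a stretch lowered as in MCM2-2A#2. The highly counted members did not separate the groups: Plxna1 differed by -0.01, Slc6a6 by -0.02, Nup210 by -0.03 and Lsm3 by -0.05. In March, likewise, MCM2-2A#3 had Mcm2 called lower while the members' median was near 0.

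Chchd6 was the only member whose August groups did not overlap (1.53% of all genes lay wholly below), and is described after its values were seen. The 7 WT clones ran from 7.94 to 9.91 CPM (median 9.03) and the 5 MCM2-2A clones from 6.85 to 7.65 CPM (median 7.01), a log2 fold change of -0.31 (SE 0.08, adjusted p 0.054). In March, it was at -0.46 in MCM2-2A#1 (adjusted p 0.070) and at -0.55 in MCM2-2A#3 (adjusted p 0.019). It was also at -0.43 in POLE4-KO#2 (adjusted p 0.096), -0.25 in POLE4-KO#3 (adjusted p 0.40) and -0.18 in POLE4-KO#1 (adjusted p 0.51). None of these passed the limits for a call, and all were below 0. Chchd6 was called in MCM2-2A#3 without WT#1 replicate 2 (-0.67, adjusted p 0.0092), where 3 members in place of 1 were called, and in POLE4-KO#2 without its replicate 1 (-0.70, adjusted p 0.0086). The March clones share WT#1 libraries, as do the POLE4-KO lines.

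Tpra1, the member nearest to the edit, varied between clones. In August its levels were 2.08 CPM in MCM2-2A#5 and 2.27 CPM in MCM2-2A#6, but 3.83, 4.04 and 4.26 CPM in MCM2-2A#4, #7 and #8, while the WT clones ran from 3.49 to 5.46 CPM. The groups overlapped (log2 fold change -0.46, SE 0.20, adjusted p 0.23). In March, Tpra1 read 5.50, 5.96 and 6.15 CPM in WT#1 and 3.97, 4.37 and 4.66 CPM in MCM2-2A#3 (-0.44, adjusted p 0.011, below the fold limit). MCM2-2A#3 was below MCM2-2A#1 for Tpra1 by a log2 difference of -0.59 (adjusted p 0.0011).

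**Figure D4:**
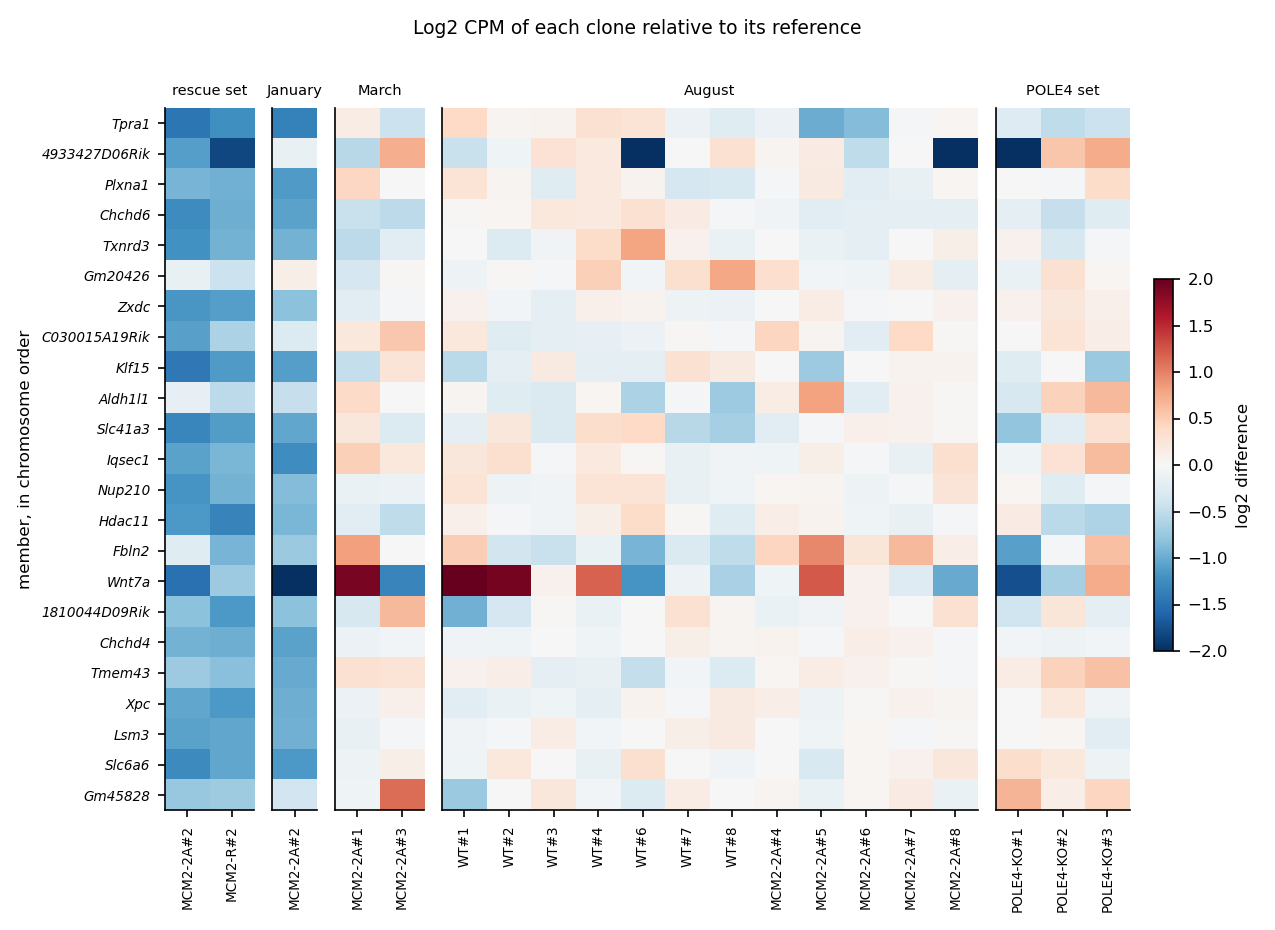
Log2 CPM of the 23 members tested in all 5 fits (rows) in each clone (columns), relative to WT#1 of the same set, to MCM2-2A#1 in January, and to the median clone in August. The colour scale saturates at 2 in either direction. The columns of MCM2-2A#2 and MCM2-R#2 are lower over most rows, and the other columns are mixed.

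**Figure D5:**
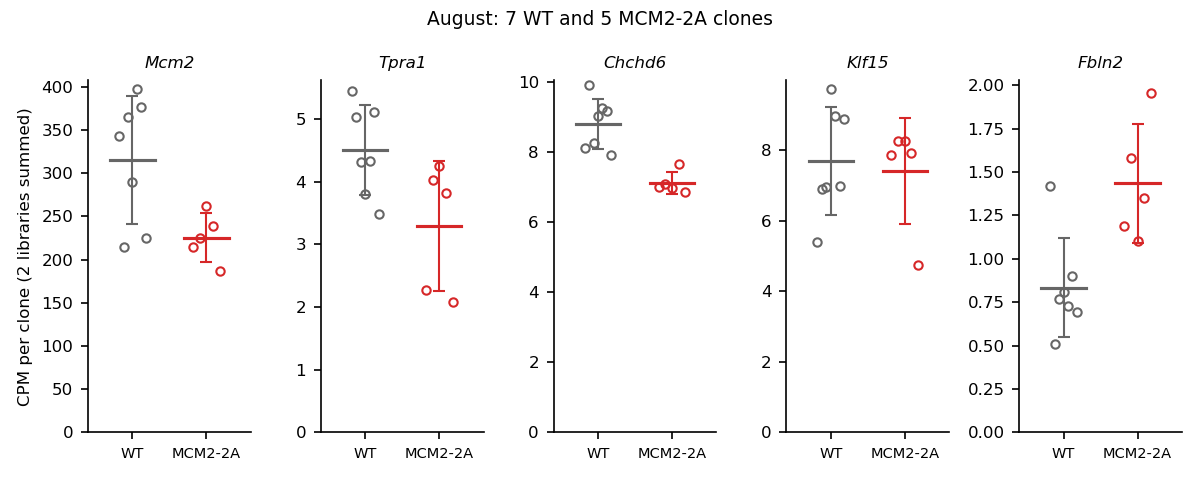
CPM of Mcm2 and of the members Tpra1, Chchd6, Klf15 and Fbln2 in the August clones, 7 WT and 5 MCM2-2A, 1 point per clone with mean and SD. Mcm2 and Chchd6 are lower in MCM2-2A clones, with 2 WT clones inside the MCM2-2A range for Mcm2; for Tpra1, 2 MCM2-2A clones lie below all others.

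POLE4-KO lines, edited elsewhere, had medians near 0 over the 27 members tested: -0.05 in POLE4-KO#1, 0.05 in POLE4-KO#2 and -0.02 in POLE4-KO#3. The 3 comparisons share the WT#1 libraries. In POLE4-KO#1, 3 members were called lower (7.81% of all genes). The largest was 4933427D06Rik, which fell from 1.29, 1.30 and 1.37 CPM to 0.16, 0.18 and 0.23 CPM (log2 fold change -2.73, SE 0.30, adjusted p 5.11e-06). Wnt7a (-1.77, SE 0.39, adjusted p 0.0026) and Fbln2 (-1.21, SE 0.24, adjusted p 0.0016) were the other members called. In August, 4933427D06Rik ran from 0.116 to 1.03 CPM over the 7 WT clones (median 0.838). Relative to the median August clone it stood at -2.59 in WT#6 and -2.42 in MCM2-2A#8, and between -0.51 and 0.30 in the other clones. For Wnt7a, WT#1 was itself the highest August clone. The Wnt7a call was lost on leaving out WT#1 replicate c3 or POLE4-KO#1 replicate 1 or 3 (adjusted p 0.0101 to 0.0181). Fbln2 read 1.11, 1.48 and 1.67 CPM in WT#1 and 0.57, 0.62 and 0.65 CPM in POLE4-KO#1, and summed fibroblast markers were 79.6 to 84.3 CPM in WT#1 and 4.73 to 5.50 CPM in POLE4-KO#1. In POLE4-KO#2 that sum was also low, at 9.07 to 11.3 CPM, with Fbln2 at 1.22 to 1.55 CPM; their part in the Fbln2 values was not tested.

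No member was called in POLE4-KO#2 (11.3% of all genes were). An unadjusted p under 0.05 was found for 13 of the 27 members and for 7003 of all 16864 genes. In POLE4-KO#3, 3 members were called (2.98% of all genes). Klf15 fell from 11.9, 13.2 and 13.8 CPM to 7.15, 7.44 and 8.58 CPM (log2 fold change -0.75, SE 0.10, adjusted p 0.000241). Iqsec1 rose from 20.6, 20.8 and 25.8 CPM to 33.8, 34.5 and 35.3 CPM (0.63, SE 0.10, adjusted p 0.000926), and Aldh1l1 from 3.71, 4.44 and 5.10 CPM to 6.15, 6.96 and 7.76 CPM (0.65, SE 0.15, adjusted p 0.0091). The Aldh1l1 call was lost on leaving out any 1 library, and the Iqsec1 call on leaving out either of 2 WT#1 libraries. Single members thus moved in both directions in POLE4-KO lines.

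Members that were not protein coding, and members with few counts, are less certain. Of the 90 members, 12 had no count in any column of the 3 tables. The symbols of 23 members begin with Vmn1r, a family of pheromone receptors, and Vmn1r53 alone of them was tested in the rescue table. The remaining rescue members, which include 1810044D09Rik, C030015A19Rik, 4930512J16Rik and Gm20426, had log2 fold changes between -1.89 and -0.24 in the 2 edited lines, and 4933427D06Rik fell furthest in MCM2-R#2. In MCM2-2A#3, the 13 tested members that are not protein coding had a median of 0.65, with none called.

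Paralogues and complex partners of the members were examined as a group chosen for function. They included plexins and Nrp1, Wnt ligands, thioredoxin reductases, LSM subunits, excision repair genes and genes of the mitochondrial inner membrane. None of 45 was called in edgeR between MCM2-2A#2 and MCM2-2A#1 in January, where 0.0607% of all genes were called. An unadjusted p under 0.05 was found there for 15 of the 45 and for 4354 of all 19757 genes. In the rescue contrasts that chose the stretch, from which nothing is read, 1 of 45 was called lower in MCM2-2A#2 against WT#1 (0.959% of all genes) and 0 in MCM2-R#2 (0.269%). In March, 5 of 45 were called higher in MCM2-2A#1 (4.34% of all genes), namely Nrp1 (log2 fold change 1.14), Wnt3 (1.13), Chst11 (1.02), Wnt7b (0.78) and Lmna (0.68). In MCM2-2A#3, 6 of 45 were called lower and 1, Slc6a8 (0.63), higher (12.6% of all genes called); Wnt3 stood at -2.45, Chst11 at -1.52, Wnt7b at -1.12 and Nrp1 at -1.02, and Zxdb and Xpa were at -0.69 and -0.68. Wnt3 and Wnt7b therefore lay above WT#1 in the clone where Wnt7a did, and below it in the other. In August, none of 46 was called (0.227% of all genes). An unadjusted p under 0.05 was found there for 10 of the 46 and for 3896 of all 20738 genes. In POLE4-KO#1, Wnt3 (-2.98), Chst11 (-1.86) and Plxna2 (-0.60) were lower and Hdac10 (0.68) higher, 4 of 43 in all (11.5% of all genes). In POLE4-KO#2, Chst11 (-1.55), Wnt3 (-1.23), Lmna (-1.05) and Txnrd2 (-0.83) were lower, 4 of 43 (6.32% of all genes). In POLE4-KO#3, Wnt7b (1.11), Chst11 (1.01) and Fbln1 (0.64) were higher, 3 of 43 (2.56% of all genes).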

How the data were processed

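Counts of RNA-seq reads per gene and per repeat subfamily were deposited as 3 tables. Per the labels, libraries were rRNA-depleted and strand-specific, reads were trimmed with Trimmomatic 0.39 and aligned with STAR 2.7.1a to mm10, and featureCounts was named for 2 of the tables. Of the deposited count columns, 65 were used and 3 could not be tied to 1 sample and were not. Technical runs of a culture and libraries of an August clone were summed. Positions were from GENCODE vM21 (GRCm38).

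Each set was fitted alone with the edgeR 4.0.16 quasi-likelihood test (R 4.3.3), after filterByExpr (minimum count 10, minimum total 15), with TMM factors from gene rows and Benjamini-Hochberg adjustment over all genes tested (17098 rescue, 19757 January, 20643 March, 20738 August, 16864 POLE4). Calls required an adjusted p under 0.01 and a log2 fold change beyond 0.58 in either direction. Fold changes came from the fit at its default prior count, and SE was the fold change over the square root of F. A prior count of 2 was used only for log2 CPM values of clones and of single cultures. DESeq2 1.42.0 and other settings were alternatives. Scripts were tested on simulated data. Replicate pairs differed by more than sampling noise (chi-square per degree of freedom 6.08 to 126 over 65 pairs), so none was counted as 1. Same-numbered WT#1 and MCM2-2A#3 libraries deviated together in March (correlations 0.157 to 0.205 in 3 of 3 pairs). Columns of repeats served only the fits. Full values were given to the 10 tested members with the highest rescue CPM, to the first and last by position, and to called members; Chchd6 and other members were added after their values were seen. The members and lists were chosen with earlier results of these data known.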

Additional observations from a re-analysis of the deposited data

Results flagged for a closer look

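Within groups of 4 to 10 samples, 144 groups of member values were examined and 8 held a sample far from the rest; chance alone flags about 1 group in 20. In the rescue table these were 4933427D06Rik in WT#1 replicate 2 (2.54 CPM, others 1.69 to 1.80), Tmem43 in WT#1 replicate 3 (18.3 CPM, others 26.5 to 27.3) and Nup210 in MCM2-2A#2 replicate 3 (37.1 CPM, others 29.9 to 30.5). In MCM2-R#2 they were 4930512J16Rik in replicate 4 (0.383 CPM, others 0.145 to 0.183), C030015A19Rik in replicate 4 (0.731 CPM, others 0.402 to 0.435) and Gm45828 in replicate 3 (0.219 CPM, others 0.348 to 0.362). In August both were in MCM2-2A#5: Klf15 at 4.75 CPM (others 7.86 to 8.26) and Aldh1l1 at 5.87 CPM (others 2.87 to 3.74).

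Differences between lines were tested directly in edgeR and are given as log2 differences with adjusted p. Between MCM2-2A#3 and MCM2-2A#1 in March, 8 of 34 members were called (18.2% of all genes were). Lower in MCM2-2A#3 were Wnt7a (-3.32, adjusted p 9.13e-08), Fbln2 (-0.85, adjusted p 0.0029), Ppp1r2-ps2 (-0.75, adjusted p 0.000427) and Tpra1 (-0.59, adjusted p 0.0011). Higher were Vmn1r53 (2.06, adjusted p 0.0042), 4933427D06Rik (1.35, adjusted p 0.0023), 1810044D09Rik (1.01, adjusted p 0.0069) and Klf15 (0.73, adjusted p 0.000642). Between POLE4-KO#1 and POLE4-KO#2 (9.93% of all genes called), 4933427D06Rik (-3.33, adjusted p 3.88e-07), Fbln2 (-1.14, adjusted p 0.0029) and Aldh1l1 (-0.79, adjusted p 0.0011) were lower in POLE4-KO#1. Between POLE4-KO#1 and POLE4-KO#3 (16.5% called), 4933427D06Rik (-3.54, adjusted p 9.26e-08), Wnt7a (-2.60, adjusted p 3.76e-05), Fbln2 (-1.82, adjusted p 1.73e-05), Aldh1l1 (-0.99, adjusted p 8.74e-05) and Iqsec1 (-0.71, adjusted p 4.73e-05) were lower in POLE4-KO#1. Between POLE4-KO#2 and POLE4-KO#3 (10.2% called), Klf15 was higher (0.76, adjusted p 5.64e-05) and Wnt7a lower (-1.54, adjusted p 0.0021) in POLE4-KO#2.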

How the results depend on the processing

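Of the 46 gene values followed under alternatives, 0 changed direction; the other values named were not followed. The median over members was -1.13 to -1.01 in MCM2-2A#2 and -1.03 to -0.98 in MCM2-R#2 on leaving out 1 culture, -0.57 and -0.83 with no filter on low counts, and -1.02 in MCM2-R#2 with the technical run as a covariate. At adjusted p below 0.05 with no fold limit, the members called numbered 12 in January, 1 in MCM2-R#2 against MCM2-2A#2, 4 in MCM2-2A#1, 6 in MCM2-2A#3, 6 in POLE4-KO#2 and 7 in POLE4-KO#3. With no filter, 14 were called in January, 2 in MCM2-2A#3 and 5 in POLE4-KO#3, and with a minimum count of 50, 0 in POLE4-KO#1. In January DESeq2 called 13, the replicate block 0, and a fit of all 39 clone-table libraries, chosen after seeing the data, 15. In August, single libraries gave 1, as did the replicate block with the library number. Leaving out 1 sample gave 0 to 0 for MCM2-R#2 against MCM2-2A#2 (0 in all data, a count the choice of members in part fixes) and for August, 0 to 14 for January, 1 to 1 for MCM2-2A#1, 1 to 3 for MCM2-2A#3, 2 to 3 for POLE4-KO#1, 0 to 1 for POLE4-KO#2 and 1 to 2 for POLE4-KO#3. The cause of these changes was not tested. Counts given here without a share of all genes show only how calls depend on the settings and are not read as results on the members. Same-numbered samples correlated above 0.1 in 5 of 12 rescue pairs and 2 of 3 January pairs, so their numbers were not taken as pairs; the replicate block changed no other count of calls. Same-numbered POLE4-KO libraries correlated above 0.1 in 9 of 9 pairs (0.151 to 0.329), and a block on that number, chosen after seeing the data, kept the 3, 5 and 2 member calls between POLE4-KO lines. No paired analysis was possible for the March MCM2-2A#1 comparisons and for POLE4-KO against WT#1 because the groups share fewer than 2 numbers. Members at low counts, copy number and the January WT level were not resolved at this depth and design.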

Other observations

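The tables were not counted alike for some members. Over all columns, Gm4575 held 10 counts in the rescue table, 205 in the POLE4 table and 128325 in the clone table, and the pseudogene Ppp1r2-ps2 held 16, 29 and 8676. Rpl21-ps12 held 11, 17 and 3617. The reverse held for AC161456.1, which had 3756 and 5144 counts in the rescue and POLE4 tables and 42 in the clone table. The cause was not tested. These members were compared within a table only, and their values are uncertain.

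In the fit of all 39 clone-table libraries, chosen after seeing the data, 15 of 36 members were called lower in MCM2-2A#2 than in MCM2-2A#1 in January (2.22% of all genes called lower), with a median of -0.78. They were the 12 named for January at adjusted p below 0.05 with no fold limit, and Zxdc, Hdac11 and Wnt7a. Wnt7a in January read 4.21 to 4.97 CPM in MCM2-2A#1 and 0.262, 0.334 and 1.81 CPM in MCM2-2A#2. MCM2-2A#1 was also the clone above WT#1 for Wnt7a in March, so the January difference of Wnt7a does not separate a low clone from a high one.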
